A study of Mus musculus with 53 samples.

Results

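The genes described are 9 components of interferon and JAK-STAT signalling, chosen by symbol: the interferon receptor chains Ifnar1, Ifnar2, Ifngr1 and Ifngr2, the kinases Jak1 and Jak2, the transcription factor Stat3 and the interferon regulatory factors Irf1 and Irf2. All 9 were among the 14833 genes listed for single T1 pre-HSCs, embryonic precursors of haematopoietic stem cells. The series holds 53 samples, of which 22 are single T1 pre-HSCs from E11 mouse embryos. Values of 12 KO cells (genotype label mH19 delta_DMR/+, cells 1 to 12) were set against those of 9 cells labelled wildtype (genotype label mH19 flDMR/+, cells 13 to 22 without 19). The wildtype cells thus carry a labelled H19 DMR allele of their own. The labels name no Cre driver, strain, embryo, litter or sort for a T1 pre-HSC, so each genotype counts as 1 sample. No test between genotypes was possible, and every difference given describes these cells only. The other libraries were not analysed here.

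Type I interferons bind a receptor made of the Ifnar1 and Ifnar2 chains, and interferon gamma binds one made of Ifngr1 and Ifngr2. Janus kinases held on the receptor chains phosphorylate STAT proteins, which then enter the nucleus and bind target genes. In the embryonic aorta, tonic interferon signalling is known to favour the formation of haematopoietic stem cells, and Stat3 also carries signals of the gp130 cytokine family.

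The table gives RPKM, in which reads are divided by transcript length and by how many reads the cell had mapped, so levels can be set between genes. A gene was called detected in a cell at 1 RPKM or more. Read depth is unknown, and a gene listed at 0 may be a failed estimate. The number of detected genes was 1517 to 8408 in KO cells (median 3172) and 2067 to 5716 in wildtype cells (median 4176). H19, the targeted locus, had 0 to 186 RPKM in KO cells (median 28.1) and 231 to 1261 RPKM in wildtype cells (median 477), with no overlap. The endothelial and pre-HSC marker Procr was detected in 9 of 12 KO cells and 8 of 9 wildtype cells, while Cd34 was detected in 3 of 12 KO cells and 1 of 9 wildtype cells. Of 14 such markers 3 were lower by at least 1 in KO cells on the log2(RPKM + 1) scale, 1 was higher and the median difference was -0.62. Among the lower markers, Eng was detected in 5 of 12 KO cells and 8 of 9 wildtype cells. Gfi1 was detected in 0 of 12 KO cells and 7 of 9 wildtype cells, and 8.80% of all listed genes were detected in wildtype and no KO cell. The summed level of the 14 markers was 4.47 to 1632 RPKM in KO cells and 5.36 to 1130 RPKM in wildtype cells. Of 3 committed-blood markers, Ptprc, which encodes CD45, was detected in 1 of 12 KO cells and 1 of 9 wildtype cells, Coro1a in 7 of 12 KO cells and 6 of 9 wildtype cells and Laptm5 in 6 of 12 KO cells and 6 of 9 wildtype cells. Among macrophage markers C1qb was listed at 0 in every cell, whereas Lyz2 was detected in 6 of 12 KO cells and 6 of 9 wildtype cells. Lyz2 differed by -1.92, while Cd68 differed by 1.07 and was detected in 2 of 12 KO cells and 0 of 9 wildtype cells. Mrc1 was detected in 1 of 12 and 0 of 9, Cx3cr1 in 1 of 12 and 1 of 9, and Fcgr1 in 0 of 12 and 1 of 9. Summed levels of 6 listed macrophage markers were 0 to 700 RPKM in KO cells and 1.24 to 1951 RPKM in wildtype cells. Those of 10 mesenchyme markers were 0.0285 to 2022 RPKM in KO cells and 0.943 to 316 RPKM in wildtype cells, and the part of such RNA in the results was not tested. Cell 19, a wildtype cell, was not used: its values near the 9 genes stood 1 row out of step with their gene names.

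Stat3 had the highest mean level of the set and was the most widely detected, and Irf1 stood last on both. As mean log2(RPKM + 1) over the 21 cells, the levels were 3.90 ± 3.02 for Stat3, 2.33 ± 2.80 for Ifngr1, 2.32 ± 2.32 for Jak1, 2.14 ± 2.97 for Ifnar2 and 1.84 ± 2.13 for Ifnar1 (SD over cells, n = 21). The remaining levels were 1.73 ± 2.91 for Ifngr2, 1.19 ± 1.81 for Irf2, 0.95 ± 1.54 for Jak2 and 0.59 ± 1.46 for Irf1. Each gene differed from its neighbour in this order by less than the SD over cells. Stat3 was detected in 15 of the 21 cells, a breadth that 9.71% of all listed genes reached, Jak1 in 11, and Ifnar1, Ifnar2 and Ifngr1 in 9 each. Irf1 was detected in 3 cells, a breadth that 60.5% of listed genes reached.

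**Figure D1:**
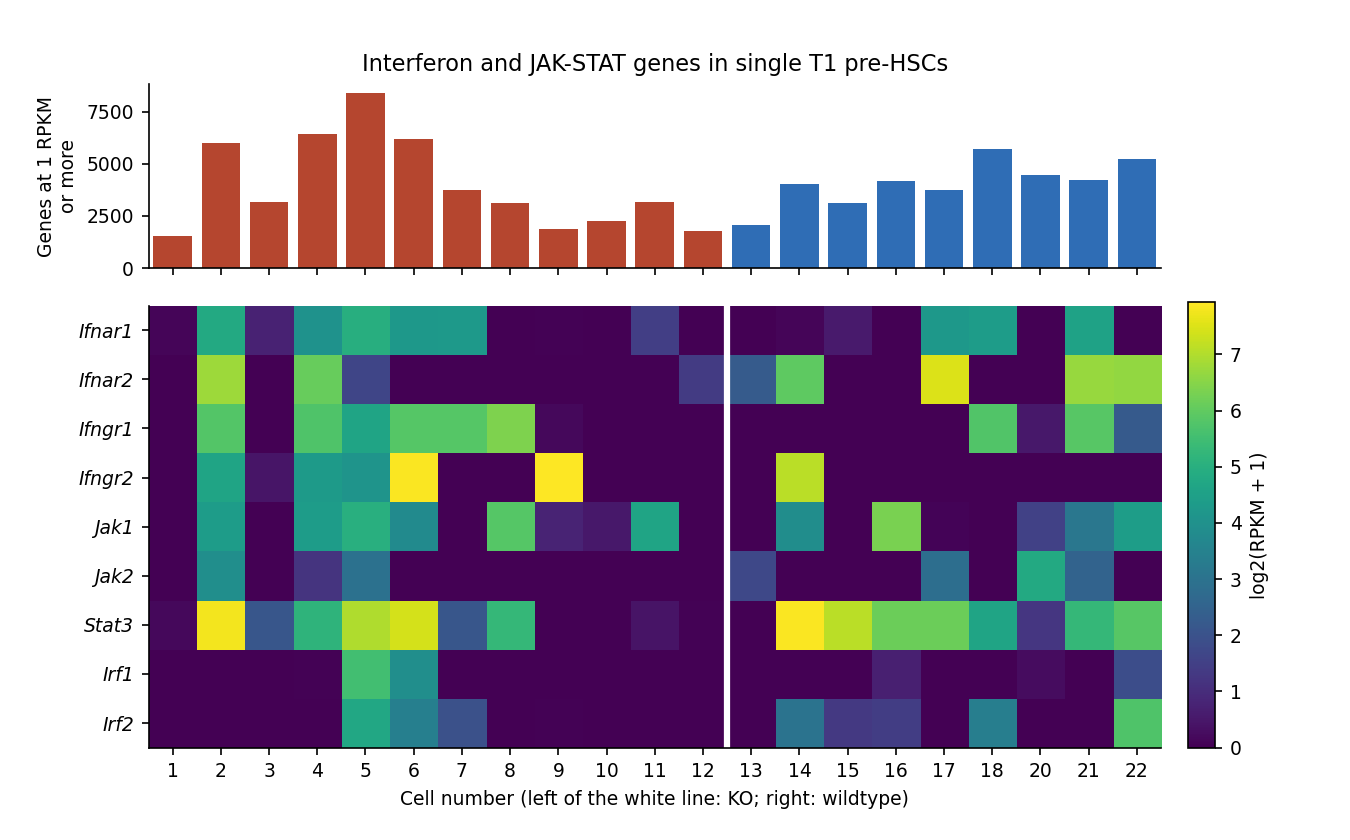
Level of each gene in each cell as log2(RPKM + 1) (colour), with KO cells left of the white line and wildtype cells right of it, and the number of genes at 1 RPKM or more per cell as bars above. KO cells 2, 4, 5 and 6 had the most detected genes and 7 to 9 of the 9 genes, whereas KO cells 1 and 10 had 0.

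By a size rule of 1 on the log2(RPKM + 1) scale, Ifnar2 and Stat3 were lower in KO cells, Ifngr1 and Ifngr2 were higher, and the other 5 genes differed by less. Of all 14833 listed genes, 10.6% were lower by at least 1 and 5.85% higher. Of the 3867 genes that 50% or more of the KO or of the wildtype cells held at 1 RPKM, 28.0% were lower and 11.4% higher. Of the 9 genes, 6 reached that breadth and Ifngr2, Jak2 and Irf1 did not. The median difference of the 9 genes was 0.29, against 0.00 over all listed genes and -0.36 over the 3867. Once each cell was shifted to a common median over the 3867 genes, the median of those genes moved up by 1.16, and the values became -0.75 for Ifnar2 and -0.64 for Stat3. The shift adds the same amount to every gene, so that Jak2 and Irf2 turned to 0.50 and 0.35. Under it 0 of the 9 genes were lower by at least 1 and 5 were higher, while of the 3867 genes 6.21% were lower and 42.2% higher. In every one of the 9 genes the values of KO and wildtype cells overlapped.

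**Figure D2:**
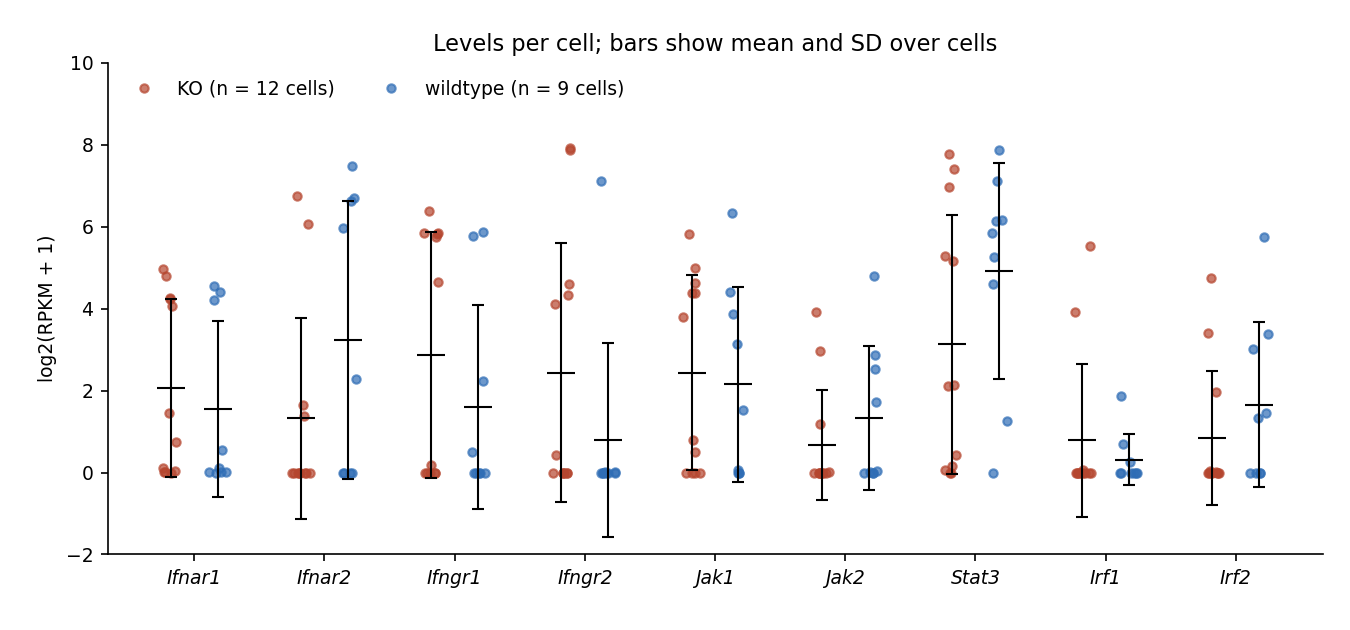
Levels of the 9 genes as log2(RPKM + 1), 1 point per cell, for 12 KO cells and 9 wildtype cells, with black lines at the mean and bars of 1 SD over cells. The KO and wildtype points overlap for every gene, and most genes split into cells near 0 and cells at higher levels.

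Ifnar2, the chain of the type I receptor that binds interferon with high affinity, was lower in KO cells, while its partner Ifnar1 differed by less than 1. Ifnar2 ranged over 0 to 107 RPKM in KO cells (median 0) and 0 to 179 RPKM in wildtype cells (median 3.83). It was detected in 4 of 12 KO cells (33.3%, exact Clopper-Pearson 95% interval 9.92 to 65.1%) and 5 of 9 wildtype cells (55.6%, 21.2 to 86.3%), intervals that cover counting of cells only. KO cells 2 and 4 held 107 and 66.7 RPKM, and wildtype cells 14, 17, 21 and 22 held 61.4, 179, 103 and 98.6 RPKM. High levels thus occurred in both genotypes, in fewer of the KO cells. The mean level was 1.32 ± 2.45 in KO cells and 3.23 ± 3.39 in wildtype cells (SD, n = 12 and 9 cells), a difference of -1.91 on the log2(RPKM + 1) scale. The difference was -3.23 for the 5 KO cells whose number of detected genes lay within the wildtype range. It was -0.19 among cells with Xist, the RNA of the inactive X chromosome, under 1 RPKM, which were 5 of the KO and 7 of the wildtype cells. The other cells included 2 wildtype cells, too few for a value.

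Ifnar1, the chain that completes the type I receptor and carries Tyk2, was detected in 6 of 12 KO cells (50%, 21.1 to 78.9%) and 3 of 9 wildtype cells (33.3%, 7.49 to 70.1%). In the KO cells 2, 4, 5, 6 and 7 it had 15.6 to 30.5 RPKM, and in wildtype cells 17, 18 and 21 it had 17.7, 20.1 and 22.6 RPKM. Levels where it was high were thus alike in range, and the mean level of 2.06 ± 2.18 in KO cells against 1.54 ± 2.15 in wildtype cells gave a difference of 0.52. It was -0.24 with the 5 KO cells within the wildtype range of detected genes, 1.25 among cells with Xist under 1 RPKM, 1.19 among cells with at least 2000 detected genes and 1.68 with equal medians. Both chains were detected in 3 of 12 KO cells (2, 4 and 5) and 2 of 9 wildtype cells (17 and 21).

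Both chains of the interferon gamma receptor had higher means in KO cells. Ifngr1, the ligand-binding chain, had 0 to 82.8 RPKM in KO cells (median 12.0) and 0 to 57.5 RPKM in wildtype cells (median 0). It was detected in 6 of 12 KO cells and 3 of 9 wildtype cells. In KO cells 2, 4, 6, 7 and 8 it had 52.6 to 82.8 RPKM, and in wildtype cells 18 and 21 it had 53.8 and 57.5 RPKM. High values were thus of like size in both genotypes and more frequent in KO cells. The mean level was 2.87 ± 2.99 in KO cells and 1.60 ± 2.50 in wildtype cells, a difference of 1.27. It was 0.95 without KO cell 8, which held the highest value, and 2.74 among cells with Xist under 1 RPKM.

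Ifngr2, the chain that completes this receptor and binds Jak2, was detected in 5 of 12 KO cells (41.7%, 15.2 to 72.3%) and 1 of 9 wildtype cells (11.1%, 0.281 to 48.2%). Its KO values were 23.5, 19.1 and 16.2 RPKM in cells 2, 4 and 5, and 233 and 242 RPKM in cells 6 and 9. The wildtype value was 137 RPKM, in cell 14. The few cells with the transcript thus covered a wide range. KO cell 9 and wildtype cell 14 also held mesenchymal matrix RNA, 322 and 243 RPKM summed over Col1a1, Col1a2, Col3a1, Postn, Dcn and Lum, whose part in this was not tested. The mean level was 2.44 ± 3.17 in KO cells and 0.79 ± 2.37 in wildtype cells, a difference of 1.65. Among the 5 KO cells whose number of detected genes lay within the wildtype range the difference was -0.71, and none of these cells reached 1 RPKM. Among cells with Xist under 1 RPKM it was 3.93. Both chains were detected in 4 of 12 KO cells (33.3%, 9.92 to 65.1%), cells 2, 4, 5 and 6, and in 0 of 9 wildtype cells, which allows a share of up to 33.3% if 3 counts of the total are taken as the limit, or 33.6% as the exact upper bound. These 4 KO cells had 5994 to 8408 detected genes, more than any wildtype cell, and the part of this number in the receptor values was not tested.

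Ifnar2, Ifnar1 and Ifngr2 lie together on chromosome 16 (RefSeq genes of GRCm38.p6, the assembly of build mm10), at 91372783 to 91405589, 91485032 to 91510523 and 91547059 to 91564007. With Il10rb, a chain of the interleukin 10 and interferon lambda receptors, at 91406157 to 91425834, they fill 191 kb. Il10rb, named here after its values were seen, had 35.8, 9.65 and 15.8 RPKM in KO cells 2, 5 and 6 and was listed at 0 in all 9 wildtype cells. Of all listed genes, 19.0% were detected in KO and no wildtype cell. KO cells 2, 5 and 6 had 5994, 8408 and 6215 detected genes, against 2067 to 5716 in wildtype cells. Within this cluster, over all cells, Ifnar2 was lower in KO cells while Ifngr2 was higher. With the 5 KO cells within the wildtype range of detected genes, the differences were -3.23 for Ifnar2 and -0.71 for Ifngr2. Ifngr1 lies on chromosome 10, at 19591949 to 19610229.

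Jak1, a kinase that serves both interferon receptors, differed by less than 1 over all cells. It lies on chromosome 4 at 101151974 to 101265282 and ranged over 0 to 56.1 RPKM in KO cells (median 6.77) and 0 to 80.4 RPKM in wildtype cells (median 1.89). Detection was 6 of 12 in KO cells and 5 of 9 in wildtype cells. The mean level was 2.44 ± 2.38 in KO cells and 2.15 ± 2.38 in wildtype cells, a difference of 0.29, which became -0.02 without KO cell 8. It was 1.08 among cells with Xist under 1 RPKM, 1.02 among cells with at least 2000 detected genes and 1.45 with equal medians. Jak2, the kinase of the gamma receptor and of several haematopoietic cytokine receptors, lies on chromosome 19 at 29251803 to 29313095. It had 14.2, 1.26 and 6.76 RPKM in KO cells 2, 4 and 5 and was under 1 RPKM in the other 9 KO cells. In wildtype cells 13, 17, 20 and 21 it had 2.31, 6.28, 27.0 and 4.74 RPKM. Its mean level was thus low in both genotypes, 0.67 ± 1.35 in KO cells and 1.33 ± 1.76 in wildtype cells, a difference of -0.66. Jak1 and Jak2 were detected together in 3 of 12 KO cells and 2 of 9 wildtype cells, and together with both gamma receptor chains in 3 of 12 KO cells and 0 of 9 wildtype cells.

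Stat3, the set's only STAT, lies on chromosome 11 at 100886806 to 100939594 and was lower in KO cells. It ranged over 0 to 219 RPKM in KO cells (median 3.35) and 0 to 234 RPKM in wildtype cells (median 56.8). It was detected in 7 of 12 KO cells (58.3%, 27.7 to 84.8%) and 8 of 9 wildtype cells (88.9%, 51.8 to 99.7%). The top levels overlapped fully, and the genotypes parted in the cells with little Stat3. KO cells 2, 4, 5, 6 and 8 held 34.7 to 219 RPKM, KO cells 3 and 7 held 3.33 and 3.37 RPKM, and the other 5 KO cells were under 1 RPKM. Wildtype cells 14 to 18, 21 and 22 held 23.5 to 234 RPKM, wildtype cell 20 held 1.39 RPKM and wildtype cell 13 was at 0. The mean level was 3.13 ± 3.17 in KO cells and 4.92 ± 2.63 in wildtype cells, a difference of -1.79. It lay between -2.41 and -1.43 when each cell was left out in turn. KO cells 1, 9 and 12, the 3 with fewer detected genes than any wildtype cell, were among those under 1 RPKM. Among cells with at least 2000 detected genes, a limit set after seeing the data, the difference was -0.78. It was -2.93 with the 5 KO cells within the wildtype range of detected genes, and among cells with Xist under 1 RPKM it was -0.32. The part of gene number in the Stat3 difference was not tested.

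Irf1, an activator induced by interferon gamma, and Irf2, which competes with it for the same sites, stood low in both genotypes. Both promoters hold interferon-type motifs and are shown for that reason. The windows run from 250 bases before to 50 after a RefSeq transcript start (build GRCm38.p6), on the plus strand at chr11:53769764-53770063 for Irf1 and chr8:46739495-46739794 for Irf2. Capitals mark matches to the STAT-type motif TTCNNNGAA, a palindrome, and to the IRF-type motif, GAAA, any 2 bases and GAAA again, searched on both strands.
Irf1: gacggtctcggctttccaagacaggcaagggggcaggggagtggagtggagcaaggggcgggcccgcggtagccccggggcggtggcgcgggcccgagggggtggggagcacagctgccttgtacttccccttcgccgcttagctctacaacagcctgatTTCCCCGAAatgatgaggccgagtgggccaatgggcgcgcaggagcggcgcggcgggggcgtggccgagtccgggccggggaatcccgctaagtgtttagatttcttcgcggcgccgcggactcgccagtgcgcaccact
Irf2: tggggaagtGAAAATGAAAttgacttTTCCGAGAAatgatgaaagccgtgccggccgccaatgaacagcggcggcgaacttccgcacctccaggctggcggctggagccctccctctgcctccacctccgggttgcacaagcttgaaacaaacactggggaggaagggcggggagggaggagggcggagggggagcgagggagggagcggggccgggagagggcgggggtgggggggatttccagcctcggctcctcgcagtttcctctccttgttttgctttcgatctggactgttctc
The Irf1 window shown is the one of its start sites that holds a match. Counted from that start as 0, the STAT-type match stands at -90 to -82 in Irf1 and at -224 to -216 in Irf2. The IRF-type match of Irf2 stands at -241 to -232 and does not overlap the other. Of 32851 mouse promoter windows of this length, 8.30% hold the STAT-type motif and 3.44% the IRF-type motif. The 9 genes had 10 windows, and the STAT-type motif was found in 4, those of Ifnar1 (TTCACGGAA, across the start used for its window, which lies inside the gene span given above), Ifnar2 (TTCCTGGAA), Irf1 and Irf2. The IRF-type motif was found in 1. A match describes these letters and does not show a bound site.

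Irf1 lies on chromosome 11 at 53770014 to 53778374 and Irf2 on chromosome 8 at 46739745 to 46847458. Irf1 was detected in 2 of 12 KO cells (16.7%, 2.09 to 48.4%) and 1 of 9 wildtype cells, with 45.0 and 14.2 RPKM in KO cells 5 and 6 and 2.65 RPKM in wildtype cell 22. Its mean level was 0.79 ± 1.87 in KO cells and 0.31 ± 0.63 in wildtype cells, a difference of 0.48. Irf2 was detected in 3 of 12 KO cells and 5 of 9 wildtype cells. In cells with the transcript it had 25.7, 9.69 and 2.92 RPKM in KO cells 5, 6 and 7, against 1.5 to 52.9 RPKM in wildtype cells 14, 15, 16, 18 and 22. Irf2 had a mean of 0.85 ± 1.64 in KO cells and 1.66 ± 2.02 in wildtype cells, a difference of -0.81. Both factors were detected together in KO cells 5 and 6 and in wildtype cell 22, the cells that held all of the Irf1 found.

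The number of the 9 genes found in a cell followed the number of all genes found there. KO cells held 42 of 108 possible values at 1 RPKM or more (38.9%) and wildtype cells 35 of 81 (43.2%), with a median per cell of 2.5 in KO cells (0 to 9) and 4 in wildtype cells (2 to 6). The Spearman correlation with the number of detected genes was 0.90 over 21 cells, 0.91 within the 12 KO cells and 0.58 within the 9 wildtype cells. Both counts of a cell come from the same library, so these values are a description. KO cells 2, 4, 5 and 6 accounted for 30 of the 42 KO values. The 5 KO cells within the wildtype range of detected genes held 10 of 45 (22.2%), with 3162 genes at the median against 4176 in wildtype cells. KO cells 1, 9 and 12 held 2 of 27. The KO cells thus covered a wider range than the wildtype cells.

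**Figure D3:**
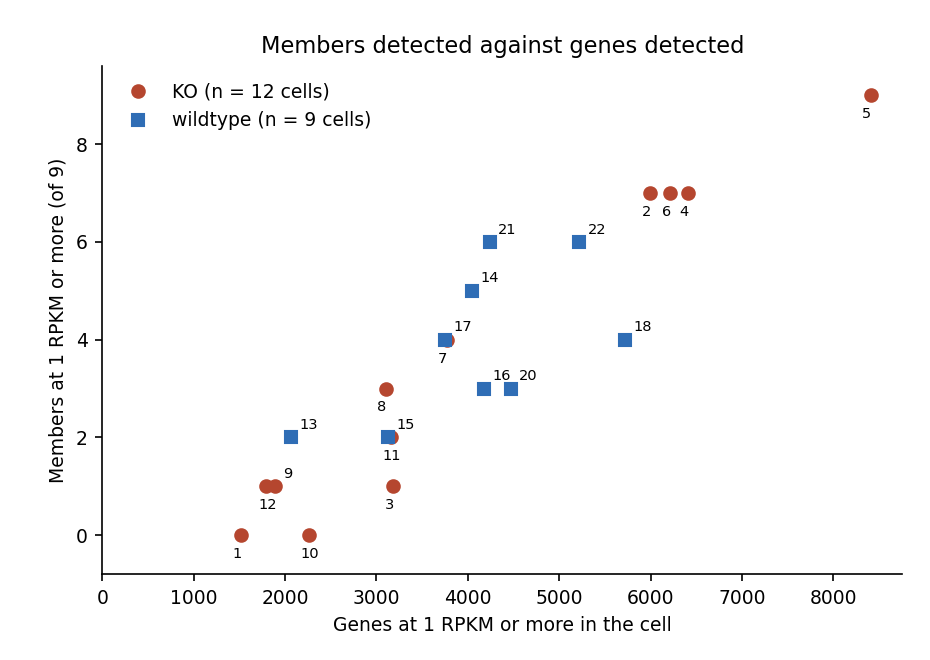
Number of the 9 genes at 1 RPKM or more against the number of all genes at 1 RPKM or more, 1 numbered point per cell (12 KO, 9 wildtype). KO cells occupy both ends of the range, from 0 genes in cells 1 and 10 to all 9 in cell 5, and wildtype cells lie between 2 and 6.

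Of the 36 pairs among the 9 genes 34 had a Spearman correlation above 0 over the 21 cells, and the median was 0.28 (lowest -0.09, highest 0.57), close to the medians of 0.29 and 0.21 that Stat3 and Jak1 had with all of the 3867 genes. The highest were Irf1 with Irf2 at 0.57, which rests on 3 cells with both, and Ifnar2 with Jak2 at 0.56, with 6 such cells. The genes most like Stat3 over the 21 cells, among the 3867, included Ppp1cb at 0.89 and Tmem256 at 0.82. The genes most like Jak1 were Uhrf1 at 0.78, Plscr1 at 0.77 and Rac1 at 0.77. Stat3 itself had a correlation of 0.64 with the number of detected genes, and Jak1 0.48.

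**Figure D4:**
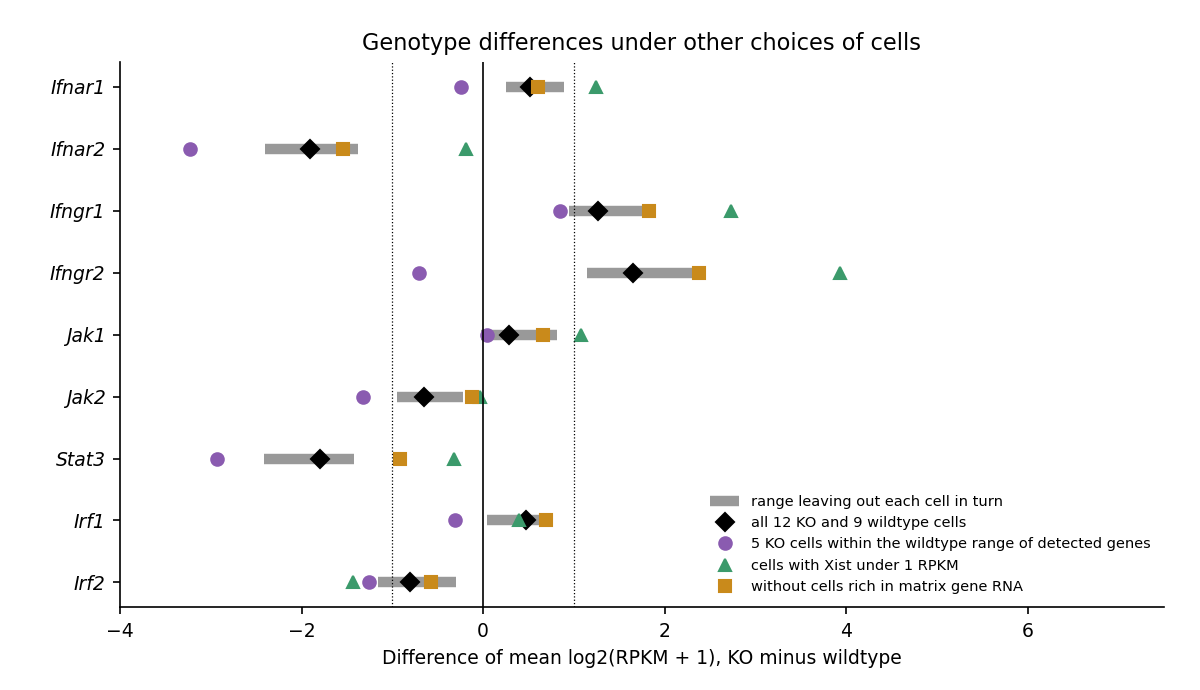
KO minus wildtype difference of mean log2(RPKM + 1) per gene, for all cells (diamonds), for 3 other choices of cells, and as grey bars for the range when each cell is left out in turn, with dotted lines at -1 and 1. Stat3 and Ifnar2 lie below 0 in every choice plotted, while Ifngr2 lies at 1.65 over all cells and at -0.71 among the 5 KO cells within the wildtype range of detected genes.

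Beside the list counts from here on, 10.6% of all 14833 listed genes were lower by at least 1 and 5.85% higher. Of the same 14833, 19.0% were detected in KO and no wildtype cell and 8.80% in wildtype and no KO cell. Among other genes of the pathway, the remaining JAK and STAT genes were sparse. Of 8 listed, 1 was lower by at least 1 in KO cells and 0 were higher, with a median of 0.20. It was Stat5b, which acts downstream of many cytokine receptors, detected in 0 of 12 KO cells and 3 of 9 wildtype cells. Tyk2, the kinase of Ifnar1, was detected in 1 of 12 KO cells, at 2.64 RPKM, and 0 of 9 wildtype cells. Genes named here from outside the 3867 were chosen after their values were seen. Of the interferon ligand and lambda receptor list Il10rb was measured and the other 11 genes were not listed under their symbols. Of 9 other IRF-family genes, 1 was lower and 0 higher, with a median of 0.08. It was Irf3, a factor activated by nucleic acid sensors, at -1.47, while Irf2bp2, a corepressor that binds Irf2, differed by 0.32.

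Of 19 negative regulators of the pathway, 2 were lower by at least 1, 1 was higher and the median was -0.06. Ptpn6, which encodes the haematopoietic phosphatase SHP-1, was lower by 2.71 and detected in 3 of 12 KO cells and 6 of 9 wildtype cells. Its levels were 95.1 to 354 RPKM in KO cells 2, 4 and 6 and 40.7 to 801 RPKM in wildtype cells 16, 17, 18, 20, 21 and 22. Ptpn2, a phosphatase of JAK and STAT proteins, differed by -1.29, Ptpn1 by -0.95 and Ptpn11, named after its values were seen, by 1.10. Of 24 other cytokine receptor genes 16 were listed, of which 0 were lower and 1, Crlf2, was higher, with a median of 0.06. The leukaemia inhibitory factor receptor Lifr, which signals to Stat3, differed by -0.01, and Il11ra1, whose reads may be shared with near-identical copies, by -0.06.

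Of 46 type I interferon response genes chosen, 34 were listed. Those not listed under their symbols included Ifit1, Ifit2, Ifit3, Mx1, Oas1a, Oas2, Oas3 and Isg20, so the counts leave these genes out. Of the 34, 0 were lower by at least 1 and 4 were higher, Ifi27, Ifi35, Lgals3bp and Uba7, with a median of 0.26. Uba7, the activating enzyme for ISG15 conjugation, was higher by 1.84, with 74.0 to 430 RPKM in KO cells 2, 4, 5, 6 and 8 and 33.7 and 132 RPKM in wildtype cells 18 and 22. The antiviral membrane protein gene Ifitm2 was detected in every cell, at 210 to 2354 RPKM in KO cells and 905 to 3690 RPKM in wildtype cells, a difference of -0.29. Ifitm3 differed by 0.69, Ifitm1 by -0.95 and the tetherin gene Bst2 by 0.86, and reads of the Ifitm genes may be shared between paralogues. Of 30 genes of the interferon gamma response and antigen presentation 21 were listed. Of these 2 were lower and 2 higher, with a median of -0.23. The class I light chain B2m and the class I heavy chain H2-D1, which has close paralogues, had means lower by 1.43 and 1.41 on this scale. The median of B2m went the other way, 323 RPKM in KO cells and 175 RPKM in wildtype cells. B2m was detected in 9 of 12 KO cells and 8 of 9 wildtype cells. It was at 0 in KO cells 1, 9 and 10, which had 1517, 1891 and 2260 detected genes, and in wildtype cell 13, which had 2067. The part of gene number in its difference was not tested. The proteasome activators Psme1 and Psme2 differed by -0.29 and -0.69.

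Of 17 STAT3 target genes, 3 were lower by at least 1 in KO cells, 1 was higher and the median was -0.18. The lower ones were Hif1a at -1.68, Cebpd at -1.67 and Bcl3. Cebpd was detected in 4 of 12 KO cells and 4 of 9 wildtype cells, and Bcl3 in 0 of 12 and 2 of 9. The higher one was Bcl2l1 at 1.02, detected in 5 of 12 KO cells and 1 of 9 wildtype cells. Hif1a, the oxygen-regulated factor, stands in row 13, among 24 rows set ahead of the table's alphabetical order, and 1 pair of its cells shared the same run of at least 5 digits, so its values are uncertain. None of the 9 genes stands in those rows, and 0 of their cell pairs shared such digits. The anti-apoptotic gene Mcl1 differed by -0.18, the immediate early gene Fos by -0.49 and the survivin gene Birc5 by 0.73. A matrix gene set of Col1a1, Col1a2, Col3a1, Postn, Dcn and Lum, markers of mesenchyme, was high in KO cells 1, 9 and 11, with summed levels of 601, 322 and 685 RPKM, and in wildtype cells 14 and 20, with 243 and 117 RPKM. Without these 5 cells, a choice made after seeing the data, Stat3 differed by -0.92, Ifnar2 by -1.54, Ifngr1 by 1.82 and Ifngr2 by 2.37.

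**Figure D5:**
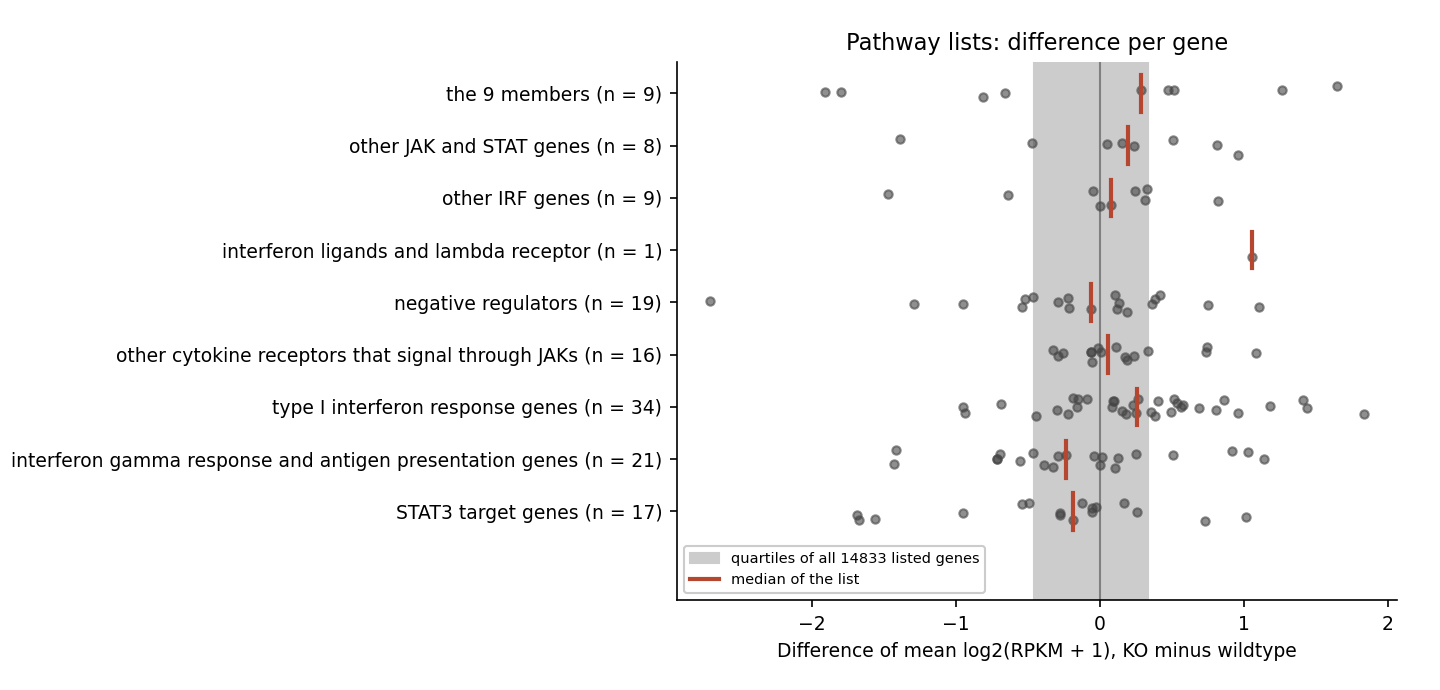
KO minus wildtype difference of mean log2(RPKM + 1) for each listed gene of the 9 and of 8 companion lists, 1 point per gene, with the list's median as a red line and the quartiles of all 14833 listed genes in grey. List medians lie between -0.23 and 0.29, apart from the interferon ligand and lambda receptor list, where Il10rb stands alone at 1.06.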

How the data were processed

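RNA of single T1 pre-HSCs was measured with a template-switching library per cell, with ERCC spike-in RNA added, per the labels' protocols. The authors deposited RPKM with 1 column per cell. The submitters' processing notes name Cufflinks 2.1.0 and build mm10. Aligner, annotation and multiple-mapping rules were not given in the sources used here. Because RPKM is relative to the mapped reads of a cell, a few abundant genes lower the rest. KO cells summed to 865404 to 1129740 RPKM over the table and wildtype cells to 909372 to 1085360 RPKM. The values do not step in whole reads, which leaves depth and the counting error of a gene unknown.

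Differences are of mean log2(RPKM + 1), pseudocount 1, KO minus wildtype, which understates changes of low genes. A gene passed the filter when 50% or more of the KO or of the wildtype cells held it at 1 RPKM, and all 9 genes are described whether they passed or not. The labels name no embryo, so a genotype is 1 sample and no p-value was computed. Intervals are exact Clopper-Pearson at 95% and cover counting of cells only. Named companion genes are the up to 4 passing the filter with the largest difference per list, plus those marked as chosen later, and some genes are not reported here. The members and lists were chosen with earlier results of these data known.

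Wildtype cell 19 was left out. In stretches of 500 rows around the 9 genes its Spearman correlation with the other cells was -0.05 to 0.38 as deposited and 0.44 to 0.62 when shifted by 1 row, and Actb was at 0, whereas the other 21 cells were in step. Promoter windows are from RefSeq (GRCm38.p6), matched by symbol for all 9 genes. Calculations used Python 3.11.15, numpy 2.4.6, pandas 2.3.3 and scipy 1.17.1, and the difference was tested on simulated cells. Each simulated gene had the same detection rate in every cell, so that test does not cover the spread in detected genes between the real cells. Alternatives changed the pseudocount, the scaling, the summary, the detection level, the filter and the cells used.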

Additional observations from a re-analysis of the deposited data

Results flagged for a closer look

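In groups of 9 wildtype cells, a value was singled out where its gap to the nearest other cell exceeded 0.493 of the whole range, Dixon's 95% limit, which chance passes in about 1 of 20 groups of normally distributed values. All 9 genes were screened in this way, on the log2(RPKM + 1) scale. Groups with many values at 0 are not normally distributed, so that rate need not hold for them. A gene near 0 in all cells but 1 passes the limit by construction, so the Ifngr2 value restates detection in 1 of 9 wildtype cells. Irf1 was also detected in 1 of 9 wildtype cells and listed at 0 in 6, so its value largely restates detection too. Ifngr2 in wildtype cell 14 was 137 RPKM, while the next wildtype cell had 0.0136 RPKM, and the gap was 0.997 of the range. Irf1 in wildtype cell 22 was 2.65 RPKM, while the next had 0.629 RPKM, and the gap was 0.623 of the range. The 12 KO cells are too many for this limit.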

How the results depend on the processing

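Ifnar2, Stat3 and Ifngr1 kept their direction under all 11 other settings and under leaving out each cell in turn, with values of -3.23 to -0.19, -3.73 to -0.32 and 0.66 to 2.74. Of these settings, 1 added wildtype cell 19, whose values near these genes stood 1 row out of step with their gene names. That setting can neither strengthen nor weaken a result for a gene, and its counts given below have the same limit. Ifngr2 was at -0.71 among cells within the wildtype range of detected genes, against 1.65 over all cells, the only reversal of a gene past the size rule. The other 5 genes did not keep their sign under all settings. The number of genes lower by at least 1, 2 over all cells, was 4 with a pseudocount of 0.1 and within the wildtype range of detected genes, 3 with medians over cells, 1 with a pseudocount of 10, with Xist under 1 RPKM, with at least 2000 detected genes and without cells rich in mesenchymal matrix RNA, and 0 with equal medians. The share of the 3867 genes lower by at least 1, 28.0% over all cells, moved too, to 40.6% and 39.5% under the first 2 of these settings. It was 37.5% with medians over cells and 6.21% with equal medians. Where 1 gene was lower it was 11.0%, 22.6%, 15.7% and 18.5%, in the order of settings given. The number higher by at least 1, also 2 over all cells, was 5 with equal medians, 4 with Xist under 1 RPKM and with at least 2000 detected genes, 1 with medians over cells and with wildtype cell 19 included, and 0 with a pseudocount of 10 and within the wildtype range. The share of the 3867 genes higher by at least 1, 11.4% over all cells, was 42.2% with equal medians, 21.0% with Xist under 1 RPKM and 22.8% with at least 2000 detected genes. It was 17.6% with medians over cells, 13.7% with wildtype cell 19 included, 4.03% with a pseudocount of 10 and 13.6% within the wildtype range. With the log2 ratio of mean RPKM + 1 the counts were 2 lower and 3 higher, and 16.5% of the 3867 genes were lower and 15.3% higher. Leaving out each cell in turn gave 2 to 3 lower genes, 1 to 2 higher genes (1 without KO cell 8) and a median difference of -0.02 to 0.51. The settings on gene number and matrix RNA were chosen after seeing the data. Of all genes, 10.6% were lower and 5.85% higher without the filter, and 32.7% and 11.9% with a filter at 5 RPKM. At 0.1 RPKM as the detection level, 45.4% of values in KO cells and 48.1% in wildtype cells were detected, and at 5 RPKM 32.4% in KO cells and 32.1% in wildtype cells. The cause of these changes was not tested. No paired analysis was possible because KO cells 1 to 12 and wildtype cells 13 to 22 share no replicate number. Depth is unknown, and with no named embryo the differences cannot be told apart from differences between embryos, sorts or captured cells.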

Other observations

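Type I interferon response genes were found in different numbers per cell. Of the 34 listed, KO cells held a median of 6 (2 to 22) and wildtype cells a median of 6 (3 to 11), and the count had a Spearman correlation of 0.81 with the number of detected genes over the 21 cells. KO cells 6, 5, 2 and 4 held 22, 19, 15 and 11 of them. Of these genes, 15 (44.1%) were detected in at least 1 KO cell and in 0 of 9 wildtype cells, against 19.0% of all listed genes. Of the 15, 12 were detected in no KO cell other than 2, 4, 5 and 6. These KO cells ranged over 5994 to 8408 detected genes, against 2067 to 5716 in wildtype cells. The matching count was not made for all listed genes, so the 12 cannot be read as a trait of this list. The share detected in KO and no wildtype cell was 19.0% (4 of 21) for genes of the interferon gamma response and antigen presentation. It was 11.8% (2 of 17) for STAT3 target genes and 37.5% (6 of 16) for other cytokine receptors. Conversely, 1 type I response gene (2.94%) was detected in a wildtype cell and in 0 of 12 KO cells, against 8.80% of all listed genes. Isg15, a ubiquitin-like modifier, was detected in KO cell 5 alone, at 87.3 RPKM, and the antiviral gene Rsad2 and the regulator Irf7 in KO cell 6 alone, at 22.1 and 14.6 RPKM. These genes were picked after their values were seen, and the part of gene number per cell in these counts was not tested.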
